A study of Homo sapiens with 8 samples.

Results

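The cytosolic ribosomal proteins, the protein parts of the ribosome that translates messenger RNA in the cytoplasm, were followed as transcripts in 8 RNA sequencing libraries of OCI-AML5 cells, a human line established from acute myeloid leukaemia. The genes were the 77 of 23562 rows of the count table whose symbols name a protein of the large subunit (46 genes, RPL3 to RPL41 and RPLP0 to RPLP2) or of the small subunit (31 genes, RPS2 to RPS29 and RPSA), with a Y-linked paralogue left out. The measures were the share of all counts that fell on these genes and the CPM of each gene, its counts scaled to a common library size. There were 4 libraries of cells transduced with lentiCRISPRv2, which delivers Cas9 together with a guide RNA by lentivirus, with guides specific for CEBPD (sgCEBPD 1 to 4), and 4 of cells transduced with the same vector and non-specific guides (sgControl 1 to 4). Each library came from a different guide, all 8 were made from polyadenylated RNA, and no time after transduction was given. The product of CEBPD, C/EBP delta, is one of the transcription factors named for binding CCAAT and enhancer sequences, and the comparison asked how transcripts differed when its guides replaced control guides. No label says that libraries came from separate cultures beyond the separate guides, so the p-values refer to the spread among these 8 libraries, part of which may be technical.

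A ribosome holds one copy of nearly every ribosomal protein beside its ribosomal RNAs, and cells adjust production of the whole set together with growth. In vertebrates the control is exerted in large part on translation: ribosomal protein messages usually begin with a C followed by a run of pyrimidines, the 5′ terminal oligopyrimidine (TOP) motif, through which signalling by the kinase mTOR and the RNA-binding protein LARP1 sets their translation and stability. In blood, inherited loss of one copy of certain ribosomal protein genes causes Diamond-Blackfan anaemia, deletion of a region that holds RPS14 accompanies the 5q- syndrome, and mutations of RPL5, RPL10, RPL22 and RPS15 occur in leukaemias.

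The TOP motif was the sequence feature most members shared. RefSeq start sites on GRCh38.p14 were matched for 62 of the 77 members, and in 46 of the 62 (74.2%) a listed start began with C and at least 4 further pyrimidines, against 1404 of 27305 genes (5.14%) overall. The windows below run from 10 bases before the listed start to 20 bases from it, 5′ to 3′ on the gene's strand, and capitals mark the pyrimidine run at the start. They are those of the member with the most CPM per kilobase (RPL13), a protein of the ribosomal stalk (RPLP2), the only member whose groups did not overlap in a comparison below (RPL22), the S6 kinase target (RPS6), 3 of the members that stood high in the library sgCEBPD 3 (RPL35A, RPS27 and RPS7) and the most abundant of those that stood lowest there (RPL6). The sequences are from RefSeq.
RPL13, chr16:89560672-89560701, + strand: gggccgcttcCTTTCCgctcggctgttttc
RPLP2, chr11:809957-809986, + strand: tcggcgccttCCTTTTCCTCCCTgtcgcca
RPL22, chr1:6199576-6199605, − strand: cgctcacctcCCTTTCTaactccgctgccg
RPS6, chr9:19380217-19380246, − strand: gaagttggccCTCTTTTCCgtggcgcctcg
RPL35A, chr3:197950180-197950209, + strand: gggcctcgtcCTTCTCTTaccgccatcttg
RPS27, chr1:153990752-153990781, + strand: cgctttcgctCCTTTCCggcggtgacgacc
RPS7, chr2:3575250-3575279, + strand: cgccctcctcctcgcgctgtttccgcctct
RPL6, chr12:112409266-112409295, − strand: gacggcgcgtgcactgtgttcctggtcctg
At the starts listed for RPS7 and RPL6 there was no such run in this table, so no base is in capitals. In the 300-base windows from 250 bases before to 50 bases after the start, searched on both strands and whether or not matches of different motifs overlapped, CCAAT was present for 35.5% of members and 39.7% of all genes, and TATAAA for 5 of 62 members and 3819 of 27305 genes. The E-box CACGTG, which MYC recognises, was present for 6.45% of members and 8.77% of all genes. The ETS core CCGGAAGT was present for 14.5% and 4.95%, the YY1 core AAGATGG for 12.9% and 7.11%, and GGGCGG, which SP1 recognises, for 58.1% and 48.3%. The palindrome TTGCGCAA, which C/EBP proteins bind, was in 0 of the 62 members' windows and in 0.172% of all genes' windows.

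Library totals lay between 10217751 and 11521209 counts. CEBPD transcript stood at 107, 209, 195 and 164 CPM in sgCEBPD 1 to 4, against 216, 204, 205 and 202 CPM in sgControl 1 to 4, so sgCEBPD 2 and 3 lay near the controls, and editing of the gene was not measured here. Of 7 myeloid markers, 6 were present in all 8 libraries, with CD33 at 99.0 to 143 CPM and SPI1, which encodes the myeloid factor PU.1, at 297 to 433 CPM, and ANPEP was at 0 to 0.473 CPM. Of 4 erythroid markers only the factor KLF1 was in the table, at 0.0874 to 0.786 CPM, and the lymphoid marker CD79A stood at 1.68 to 3.05 CPM in sgCEBPD and 5.14 to 5.95 CPM in sgControl. The library sgCEBPD 3 stood apart: its 8 monocyte and macrophage markers summed to 1077 CPM, against 429 to 543 CPM in the other 7 libraries, and its 5 cycling markers to 1745 CPM, against 2208 to 2350 CPM. Of these 5, 4 were lowest in sgCEBPD 3, and CCNB1 was highest there, at 158 CPM against 130 to 150 CPM. CD14, a monocyte receptor, was at 41.0 CPM in sgCEBPD 3, at 0.281, 2.74 and 0.259 CPM in sgCEBPD 1, 2 and 4, and at no more than 0.0918 CPM in the controls. Of the marker genes, CTSG, a neutrophil granule protease, fell in both comparisons, to 4.72 to 8.05 CPM in sgCEBPD against 25.2 to 41.4 CPM in sgControl (adjusted p = 0.0183 in edgeR with 8 libraries). That call was lost without sgControl 1, 3 or 4 or sgCEBPD 2 (highest adjusted p = 0.115 in edgeR), and with 7 libraries it held in each of 15 alternatives. Without sgCEBPD 3, TYROBP rose and CD33, CSF3R, CD79A and BPI fell (adjusted p in edgeR between 0.00938 and 0.0269). BPI was called in all 14 alternatives that tested it, CSF3R in 14 of 15, CD79A in 12 of 14, CD33 in 11 of 15 and TYROBP in 8 of 15. In sgCEBPD 3 BPI and CSF3R went the other way: BPI stood at 17.6 CPM there, at 0 to 0.346 CPM in sgCEBPD 1, 2 and 4 and at 2.97 to 7.62 CPM in sgControl, and CSF3R stood at 418 CPM there, at 170.5 to 226 CPM in sgCEBPD 1, 2 and 4 and at 288 to 308 CPM in sgControl. With 8 libraries their log2 fold changes were -0.075 and -0.26 (adjusted p = 0.984 and 0.688 in edgeR). DESeq2 also called CD33, CD79A and TYROBP with 8 libraries, MRC1 in both comparisons and MYB with 7. Each comparison is therefore given with all 8 libraries and with 7, without sgCEBPD 3.

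Ribosomal protein genes took about the same share of the library in both groups, apart from sgCEBPD 3. The share was 5.03%, 4.95%, 4.14% and 5.12% in sgCEBPD 1 to 4, against 4.81%, 5.10%, 4.97% and 5.06% in sgControl 1 to 4. Thus sgCEBPD 3 lay below the other 7 libraries, and sgCEBPD 1, 2 and 4 lay within or just above the range of the controls. The mean share was 4.81 ± 0.453% in sgCEBPD (SD, n = 4), or 5.03 ± 0.0875% without sgCEBPD 3 (n = 3), and 4.98 ± 0.129% in sgControl (n = 4). The share in sgCEBPD 3 was 82.2% of the mean of the other 3 sgCEBPD libraries. After scaling by the TMM factors, which correct each total for a skew between libraries, it was 4.36% against 4.75% to 5.10% in the others. Mitochondrially encoded transcripts took 2.80% of counts in sgCEBPD 3 and 2.95% to 3.17% in the others. In bulk RNA, fewer cells of a type and less RNA per cell cannot be told apart.

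**Figure D1:**
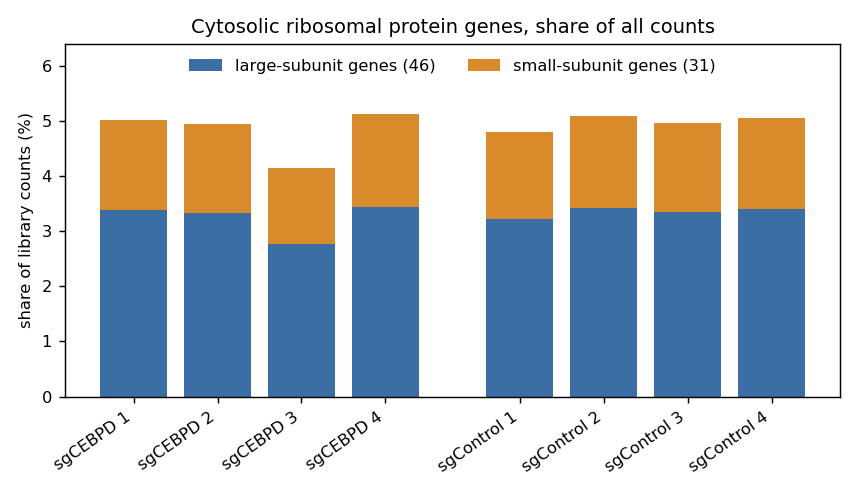
Share of all counts of a library that fell on large-subunit (lower, blue) and small-subunit (upper, orange) ribosomal protein genes, in percent, for the 4 sgCEBPD libraries and the 4 sgControl libraries. The bar of sgCEBPD 3 reaches 4.14%, and the other 7 reach 4.81% to 5.12%.

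The proportion of the subunits differed little between libraries. Large-subunit genes took 3.38%, 3.34%, 2.77% and 3.44% of counts in sgCEBPD 1 to 4, against 3.23%, 3.42%, 3.34% and 3.40% in sgControl 1 to 4. Small-subunit genes took 1.65%, 1.61%, 1.37% and 1.69% in sgCEBPD 1 to 4, against 1.58%, 1.68%, 1.62% and 1.66% in sgControl 1 to 4. The ratio of small- to large-subunit counts was 0.487, 0.483, 0.492 and 0.491 in sgCEBPD 1 to 4, against 0.490, 0.491, 0.486 and 0.487 in sgControl 1 to 4. The groups overlapped, with means of 0.488 ± 0.00422 in sgCEBPD and 0.489 ± 0.00246 in sgControl (SD, n = 4 each). The ratio in sgCEBPD 3 was the highest of the 8, next to 0.491 in sgCEBPD 4 and sgControl 2.

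As levels, 16 members exceeded a mean of 1000 CPM, 20 were among the 100 most abundant rows of the table, 10 were under 100 CPM and 3 under 5 CPM. Per kilobase of mRNA, which allows genes to be compared, the highest mean over the 8 libraries was that of RPL13 (1878 CPM per kilobase), followed by RPS2 (1809), RPL3 (1693) and RPL8 (1612). RPL3 and RPL8 lie near the peptidyl transferase centre, and RPS2 lies at the mRNA entry channel. Among the lowest were RPS10 (3.76 CPM per kilobase), RPL17 (5.10), RPS23 (18.6) and RPL36A (21.5). The lengths were those of the shortest complete transcript in GENCODE release 29 with the gene's principal coding length. For some members the only such transcript is long, as in RPS23 and RPL37 (3437 and 7686 bases). The per-kilobase levels of such members are lower than a shorter transcript would give.

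The low members are uncertain as levels, because the counting method was not stated and reads of near-identical copies or overlapping genes cannot be assigned from the table. RPS10 shares 39.4% and RPL17 35.3% of its exon bases with other genes, among them for both a read-through transcript of the gene and its neighbour, and 7 members share at least 20%. The table held 266 rows of ribosomal protein pseudogenes for 60 of the 77 members, which took 0.170% of counts in sgCEBPD 3 and 0.189% to 0.207% in the others. Some of these rows were as high as working genes: RPS2P5 stood at 398, 399, 361 and 412 CPM in sgCEBPD 1 to 4, against 366, 388, 369 and 393 CPM in sgControl 1 to 4. RPS28P7 stood at 187, 187, 169.6 and 187 CPM in sgCEBPD 1 to 4, against 176, 188, 183 and 193 CPM in sgControl 1 to 4. Both were lowest in sgCEBPD 3, as most members were.

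No member passed the test between sgCEBPD and sgControl, with or without sgCEBPD 3. Counts were tested in edgeR with a quasi-likelihood model over the whole table and p-values adjusted by the Benjamini-Hochberg method, with a threshold of 0.05. Of the 77 members, 76 had enough counts for the test. With 8 libraries 0 of the 76 were called, where 0.0795% of the 13838 genes tested were called. Without sgCEBPD 3 again 0 of 76 were called, where 2.01% of 14047 genes were. DESeq2 and limma-voom also called 0 members in both comparisons. At an unadjusted p under 0.05 there were 0 members with 8 libraries, against 11.4% of all genes, and 1 member (RPL22) with 7 libraries, against 15.5% of all genes. The groups did not overlap in 0 members with 8 libraries, against 9.59% of all genes, and in 1 member, again RPL22, with 7 libraries, against 14.4% of all genes.

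The estimates were small and their intervals narrow for most members. With 8 libraries the log2 fold change (sgCEBPD over sgControl) was negative for 56 members and positive for 20, with a median of -0.020, beside a median of 0.0003 over all genes tested. Without sgCEBPD 3 it was positive for 61 and negative for 15, with a median of 0.027, beside 0.0011 over all genes. With library totals in place of TMM scaling the medians were -0.046 and 0.016, beside -0.027 and -0.0099 over all genes. The 95% confidence interval reached 0.16 to either side of the estimate in the median member with 8 libraries and 0.094 with 7. In the comparison of 7 libraries, 63 of the 76 members had an interval that lay wholly within a log2 change of 0.2 in either direction, as did 3011 of the 14047 genes. These genes were not matched for level. Counting error in the controls had a median of 1.27% for the members and 5.73% for all genes tested with 8 libraries. The estimates themselves ran between -0.14 (RPS10) and 0.49 (RPS18) with 7 libraries, and between -0.22 (RPL26) and 0.60 (RPS18) with 8 libraries.

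**Figure D2:**
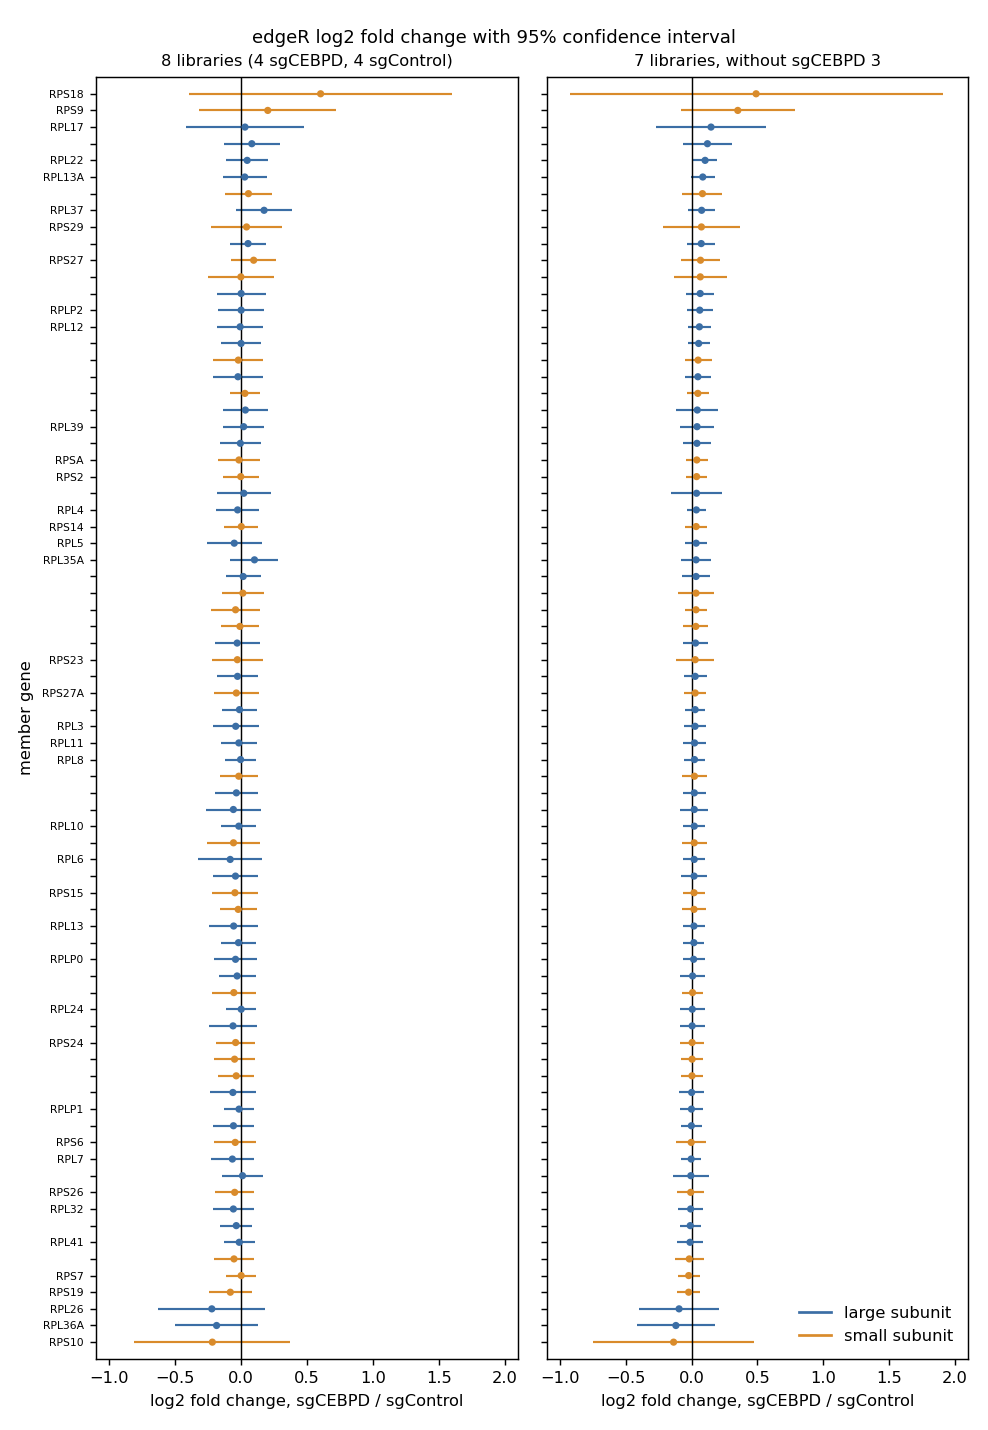
Log2 fold change of sgCEBPD over sgControl (horizontal axis) with its 95% confidence interval for the 76 tested ribosomal protein genes, in order of the estimate without sgCEBPD 3, for all 8 libraries (left) and without sgCEBPD 3 (right). Blue marks the large and orange the small subunit, and names are given for genes described in the text. RPL22 is the only gene whose interval lies off 0, in the right panel (0.012 to 0.19).

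The subunits did not part in these medians. The median log2 fold change was -0.018 for the 46 large-subunit and -0.022 for the 30 tested small-subunit genes with 8 libraries, and 0.025 and 0.027 without sgCEBPD 3. Positive values without sgCEBPD 3 were found for 37 of 46 and 24 of 30 genes.

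Among large-subunit proteins, the stalk that recruits elongation factors is built of RPLP0 and pairs of RPLP1 and RPLP2. RPLP0 had 1944, 1844, 1593 and 1896 CPM in sgCEBPD 1 to 4, against 1786, 1901, 1892 and 1919.7 CPM in sgControl 1 to 4. RPLP2 had 495, 498, 427 and 548 CPM in sgCEBPD 1 to 4, against 480.4, 495, 489.9 and 504 CPM in sgControl 1 to 4. RPLP1 varied less, with 767, 764, 747 and 807 CPM in sgCEBPD 1 to 4, against 757, 787, 767 and 809 CPM in sgControl 1 to 4. For all 3 the groups overlapped and sgCEBPD 3 was the lowest library, and without it the log2 fold changes were 0.016, 0.062 and -0.0010 for RPLP0, RPLP2 and RPLP1.

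RPL5 and RPL11 bind the 5S ribosomal RNA, and outside the ribosome this particle inhibits MDM2, the ubiquitin ligase of p53. RPL5 stood at 1176, 1100.4, 879.9 and 1172 CPM in sgCEBPD 1 to 4, against 1107, 1117, 1119.8 and 1147 CPM in sgControl 1 to 4. RPL11 stood at 639, 625, 563 and 633 CPM in sgCEBPD 1 to 4, against 609, 627, 606 and 649 CPM in sgControl 1 to 4. In both, sgCEBPD 3 lay below the other libraries, and the remaining 7 overlapped (log2 fold change 0.035 with a 95% interval of -0.047 to 0.12 for RPL5, and 0.023 with -0.061 to 0.11 for RPL11). At the tunnel through which the new chain leaves, RPL4 had 2142, 2061, 1732 and 2067 CPM in sgCEBPD 1 to 4, against 1986, 2045, 2069 and 2055 CPM in sgControl 1 to 4. RPL39, another tunnel protein, had 174, 182, 174 and 201 CPM in sgCEBPD 1 to 4, against 177, 189, 170.1 and 186 CPM in sgControl 1 to 4, and here sgCEBPD 3 was not apart. The third tunnel protein, RPL17, was at 2.55 to 4.06 CPM in sgCEBPD and 2.80 to 3.68 CPM in sgControl.

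RPL22, which binds RNA, is dispensable for translation in mice and is deleted in some T-cell leukaemias, was the member with the lowest p without sgCEBPD 3. It had 146, 143, 123 and 148 CPM in sgCEBPD 1 to 4, against 134, 138, 135 and 137 CPM in sgControl 1 to 4. The guides 1, 2 and 4 lay above all controls and guide 3 below them. The log2 fold change was 0.10 ± 0.041 (SE) without sgCEBPD 3, with an unadjusted p of 0.0298 and an adjusted p of 0.260 in edgeR, and 0.045 ± 0.070 with all 8 libraries (adjusted p = 0.788). RPL22 lies at chr1:6185020-6209389 on the minus strand (GRCh38, GENCODE release 29). The next lowest p without sgCEBPD 3 were those of RPL13A, with log2 fold change 0.085 and an adjusted p of 0.370 in edgeR, and RPS9, with 0.35 and 0.431.

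RPL37, a small zinc-binding protein of the large subunit, had the lowest p with 8 libraries. It stood at 354, 364, 471 and 387 CPM in sgCEBPD 1 to 4, against 340.0, 368, 339.7 and 349 CPM in sgControl 1 to 4. The library sgCEBPD 3 was the highest of the 8, and the other 7 overlapped. Its log2 fold change was 0.17 ± 0.094 (SE, adjusted p = 0.5003 in edgeR) with 8 libraries and 0.076 ± 0.047 (adjusted p = 0.486) without sgCEBPD 3, over 1.5 times smaller.

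RPL10, a late-assembled protein at the catalytic centre with a recurrent mutation in T-cell leukaemia, had 820.5, 803, 730.5 and 826 CPM in sgCEBPD 1 to 4, against 765, 820.3, 818 and 816 CPM in sgControl 1 to 4. Its exons share 55.5% of their bases with other genes, 2.8% with genes on the same strand, and DNASE1L1 is the overlapping gene that the table also holds. RPL12, a protein of the stalk base, gave a log2 fold change of 0.059 and RPL13A 0.085 without sgCEBPD 3, while RPL7 (-0.0031) and RPL32 (-0.0072) lay near 0. RPL26, which is modified with the ubiquitin-like protein UFM1, was at 7.86 to 13.0 CPM in sgCEBPD and 11.4 to 15.4 CPM in sgControl, with an interval of -0.40 to 0.21 without sgCEBPD 3. RPL36A was at 7.37 to 9.85 CPM in sgCEBPD and 8.92 to 11.1 CPM in sgControl, with an interval of -0.42 to 0.18.

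Among small-subunit proteins, those at the mRNA entry and the decoding centre include RPS2 and RPS15. RPS2 had 1846, 1818, 1624 and 1833 CPM in sgCEBPD 1 to 4, against 1697, 1782, 1813 and 1845 CPM in sgControl 1 to 4. RPS15, which is mutated in some chronic lymphocytic leukaemias, had 617, 609, 502 and 611 CPM in sgCEBPD 1 to 4, against 580.2, 603, 610.1 and 624 CPM in sgControl 1 to 4. RPS23, which carries residues of the decoding centre, was at 55.6 to 67.2 CPM in sgCEBPD and 60.0 to 69.6 CPM in sgControl. All 3 were lowest in sgCEBPD 3, and the other libraries overlapped.

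At the platform where mRNA leaves, RPS14, the gene of the 5q- region, had 666, 667, 616 and 704 CPM in sgCEBPD 1 to 4, against 644, 679.8, 656 and 672 CPM in sgControl 1 to 4. RPSA, also known as the laminin receptor precursor, had 1069.5, 1030.2, 882 and 1025 CPM in sgCEBPD 1 to 4, against 977, 1009, 1048 and 1022 CPM in sgControl 1 to 4. RPS26, a frequent gene of Diamond-Blackfan anaemia, was at 304 to 354 CPM in sgCEBPD and 328 to 365 CPM in sgControl. RPS27, a zinc-finger protein, had 267, 289, 309.9 and 308 CPM in sgCEBPD 1 to 4, against 269, 293, 249 and 288 CPM in sgControl 1 to 4. In RPS27 the groups overlapped, sgCEBPD 3 and 4 lay above every control, and sgControl 3 was the lowest of the 8.

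RPS19, the gene most often mutated in Diamond-Blackfan anaemia, had 768, 763, 644 and 779 CPM in sgCEBPD 1 to 4, against 763, 799.6, 754 and 811 CPM in sgControl 1 to 4. Its log2 fold change was -0.083 ± 0.072 (SE, adjusted p = 0.649 in edgeR) with 8 libraries and -0.022 ± 0.039 (adjusted p = 0.849) without sgCEBPD 3. RPS24, another gene of that anaemia, was at 565 to 667 CPM in sgCEBPD and 629 to 666 CPM in sgControl. Of the 14 members on the list of genes of that anaemia or of leukaemia, 13 were tested, 0 were called, and the median log2 fold change was -0.018 with 8 and 0.021 with 7 libraries. RPS6, phosphorylated by S6 kinases downstream of mTOR, had 1069, 969, 916 and 1070.4 CPM in sgCEBPD 1 to 4, against 966, 1084, 1042 and 1061 CPM in sgControl 1 to 4. RPS27A, made as a fusion with ubiquitin, was at 452 to 562 CPM in sgCEBPD and 521 to 554 CPM in sgControl.

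RPS18, which lies at the head of the small subunit, varied most. It had 49.3, 20.1, 37.2 and 14.9 CPM in sgCEBPD 1 to 4, against 12.2, 25.9, 29.3 and 12.6 CPM in sgControl 1 to 4. High and low libraries occurred in both groups, and the 95% interval of its log2 fold change without sgCEBPD 3 was -0.93 to 1.90. RPS9 had 28.2, 21.0, 15.6 and 27.5 CPM in sgCEBPD 1 to 4, against 13.8, 23.9, 22.1 and 20.5 CPM in sgControl 1 to 4. RPS10 lay at 1.51 to 2.99 CPM in sgCEBPD and 1.84 to 2.82 CPM in sgControl.

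Apart from these few, the members were even between the libraries other than sgCEBPD 3. For the 67 members with a mean of at least 100 CPM, the coefficient of variation over the 4 controls had a median of 3.47% and ran from 1.27% to 10.1%. Counting error alone gave a median of 1.21% for them. Over all 2578 tested genes at that level, whose counts were mostly lower, the medians were 4.18% and 2.34%. Over 7 libraries the medians were 3.08% for the members and 5.10% for all genes at that level. The smallest SD of log2 CPM over the 8 libraries were those of RPS7 (0.039), RPL24 (0.039) and RPLP1 (0.043), and the largest those of RPS18 (0.73), RPS9 (0.35), RPS10 (0.29) and RPL26 (0.27). RPL24, which forms a bridge between the subunits, had 366, 357, 355 and 357 CPM in sgCEBPD 1 to 4, against 345, 371, 349 and 371 CPM in sgControl 1 to 4.

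In sgCEBPD 3, most members were lower than in every other library. Against the range of the other 7, 56 of the 76 tested members lay below, 4 above and 16 inside, where 34.9% of all genes tested lay below and 34.8% above. These positions describe a single library and have no replicate. The median log2 ratio of sgCEBPD 3 to the mean of sgCEBPD 1, 2 and 4 was -0.22 over the members and -0.0066 over all genes tested (with 0.5 CPM added to each value). With library totals these medians were -0.30 and -0.076. On that scale 63 members lay below and 2 above, where 40% of all genes tested lay below and 29.8% above. The ratio was negative for 67 of the 73 members with a mean of at least 10 CPM. Without that floor it was negative for 70 of the 76 tested members and for 6982 of all 13838 genes tested. The large-subunit median was -0.24 and the small-subunit median -0.18.

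The members did not move by an equal amount there. Among those of at least 10 CPM, RPS9 (-0.69), RPL26 (-0.57) and RPL6 (-0.47) had the lowest ratios. RPL6, which is also recruited to damaged DNA in human cells, had 1033, 987, 724 and 983 CPM in sgCEBPD 1 to 4, against 959, 977, 994 and 1019 CPM in sgControl 1 to 4, and only sgCEBPD 3 was set apart. RPL13 had 1377, 1402, 1100.1 and 1362 CPM in sgCEBPD 1 to 4, against 1295, 1409, 1378 and 1372 CPM in sgControl 1 to 4. RPL3 had 2575, 2484, 2058 and 2506 CPM in sgCEBPD 1 to 4, against 2353, 2522, 2484 and 2545 CPM in sgControl 1 to 4. The library sgCEBPD 3 was the lowest one in RPL26, RPL6, RPL13 and RPL3. In RPS9 it stood at 15.6 CPM, above sgControl 1 at 13.8 CPM.

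The 4 members above the other libraries were RPL37, RPL35A, RPS27 and RPS7. RPL35A, a gene of Diamond-Blackfan anaemia, had 390.4, 386, 477 and 425 CPM in sgCEBPD 1 to 4, against 370.4, 409, 379.7 and 407 CPM in sgControl 1 to 4. RPS7, another such gene, had 481, 467, 503 and 475 CPM in sgCEBPD 1 to 4, against 469, 476, 485 and 498 CPM in sgControl 1 to 4. In RPL35A sgCEBPD 3 stood clear of the next library, sgCEBPD 4, and in RPS7 it was close to sgControl 4. RPS18 had the highest ratio (0.40), but sgCEBPD 1 exceeded it. Across the 73 members, the ratio had a Pearson correlation of 0.13 with log2 mRNA length and of -0.072 with log2 mean CPM. The Spearman rank correlation of the ratio with length was -0.027. They are given as descriptions because all points share the same libraries. The 44 of these members with a TOP start had a median ratio of -0.20, and the 15 with a listed start of another kind had -0.22. The sums of the monocyte and of the cycling markers, given above, also differed in sgCEBPD 3, and the part of these markers in these values was not tested.

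**Figure D3:**
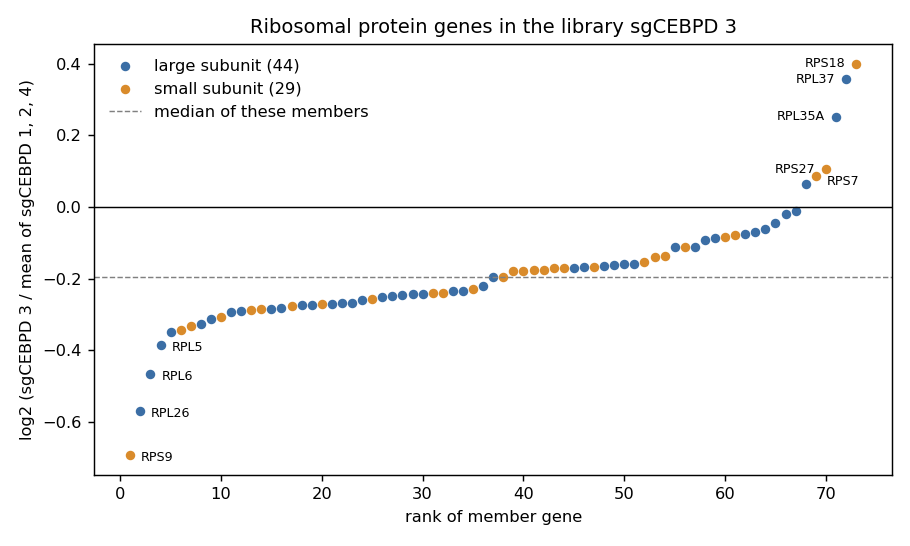
Log2 ratio of CPM in sgCEBPD 3 to the mean of sgCEBPD 1, 2 and 4 (vertical axis) for the 73 ribosomal protein genes of at least 10 CPM, in rank order, with large-subunit genes in blue and small-subunit genes in orange. The dashed line is their median (-0.20), 67 points lie below 0, and RPS18 (0.40), RPL37 (0.36) and RPL35A (0.25) stand at the top.

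Paralogues and fusion genes outside the symbol rule were described beside the members, and edgeR, DESeq2 and limma-voom called 0 of the 9 tested in either comparison. In edgeR 1 of them, RPS27L, had an unadjusted p under 0.05 in each, against 11.4% and 15.5% of all genes with 8 and 7 libraries. RPL22L1, the paralogue of RPL22, had 128, 128, 74.5 and 132 CPM in sgCEBPD 1 to 4, against 122, 128, 129 and 133 CPM in sgControl 1 to 4. Its ratio in sgCEBPD 3 was -0.79, below that of every tested member. RPS27L, a p53-responsive paralogue of RPS27, had 62.8, 68.3, 45.7 and 60.8 CPM in sgCEBPD 1 to 4, against 76.1, 74.5, 66.0 and 79.5 CPM in sgControl 1 to 4. The groups overlapped only between sgCEBPD 2 and sgControl 3, and the log2 fold change was -0.32 ± 0.12 (SE, adjusted p = 0.411 in edgeR) with 8 and -0.21 ± 0.072 (adjusted p = 0.190) with 7 libraries.

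RPL39L, a paralogue of RPL39 expressed mainly in testis and some tumours, was low, with 0, 1.99, 3.24 and 0.864 CPM in sgCEBPD 1 to 4, against 4.63, 3.68, 3.36 and 1.56 CPM in sgControl 1 to 4. RPL36AL, at 117 to 134 CPM in sgCEBPD and 111 to 128 CPM in sgControl, exceeded RPL36A itself in every library on the CPM scale, not corrected for length. RPL26L1 was at 24.0 to 32.7 CPM in sgCEBPD and 30.4 to 33.0 CPM in sgControl, with a log2 fold change of -0.17 without sgCEBPD 3. RPL7L1 was at 270.4 to 315 CPM in sgCEBPD and 291 to 303 CPM in sgControl, with a log2 fold change of 0.032. RPL3L, a muscle paralogue, was at no more than 0.295 CPM.

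FAU, a fusion gene which yields the small-subunit protein eS30, had 114, 123, 122 and 135 CPM in sgCEBPD 1 to 4, against 115, 121, 109 and 119.6 CPM in sgControl 1 to 4. RACK1, a scaffold on the small subunit, had 1342, 1318, 1277 and 1317 CPM in sgCEBPD 1 to 4, against 1269.7, 1293, 1324 and 1326 CPM in sgControl 1 to 4. The library sgCEBPD 3 lay inside the range of the others in FAU and RACK1.

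Lists of other genes of translation and ribosome production, and 1 of small respiratory chain subunits, were also described. Over 8 lists with 8 libraries, edgeR and limma-voom called 0 genes, beside 11 and 13 of the 13838 genes tested. DESeq2 called 1 (GARS1), beside 292 of 13758 genes. In edgeR the unadjusted p was under 0.05 for 4 mitochondrial ribosomal protein genes, 4 tRNA synthetases, 1 assembly factor and 1 respiratory chain gene. Of all genes tested, 11.4% had such a p. In 77 mitochondrial ribosomal protein genes (75 tested) the median log2 fold change was -0.063 with 8 and 0.0084 with 7 libraries, and sgCEBPD 3 lay below the other 7 in 51 and above in 6. In 19 further genes of the TOP kind, such as the elongation factors EEF1A1 and EEF2, the medians were 0.015 and 0.051, with 13 below and 2 above. In 25 initiation factors they were -0.018 and 0.038, with 17 below and 5 above. The mTOR and LARP1 signalling list (12 genes) had medians of 0.0096 and 0.0027, with 5 below and 3 above. These counts stand beside the 34.9% and 34.8% of all genes below and above.

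Several lists had lower median ratios in sgCEBPD 3 than the ribosomal protein genes, as a description of that library. Genes that make ribosomes were among them. The median was -0.31 for initiation factors and -0.24 for mitochondrial ribosomal protein genes. It was -0.20 for the further genes of the TOP kind and -0.027 for the mTOR and LARP1 signalling list. The 29 tested ribosome assembly factors had a median log2 ratio of -0.61 in sgCEBPD 3, against -0.22 for the members, and sgCEBPD 3 lay below the other 7 in 26 and above in 0. TCOF1, a nucleolar cofactor of ribosomal RNA transcription, had 208, 198, 88.7 and 191 CPM in sgCEBPD 1 to 4, against 187, 194, 192 and 194 CPM in sgControl 1 to 4. Their median log2 fold change was -0.14 with 8 libraries and -0.010 without sgCEBPD 3. The 26 genes of RNA polymerases I and III had a ratio of -0.31 in sgCEBPD 3 and medians of -0.11 and -0.0071 with 8 and 7 libraries. For the 47 tested genes of small respiratory chain subunits, the values were -0.24, -0.076 and 0.0033. MYC, which drives transcription of ribosome genes, had 891, 774, 471 and 824 CPM in sgCEBPD 1 to 4, against 880.5, 964, 839.6 and 849 CPM in sgControl 1 to 4, and sgCEBPD 3 was again the one apart (adjusted p = 0.578 in edgeR with 8 libraries).

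The 20 tested tRNA synthetases, which charge tRNAs with amino acids, lay nearer 0. Their median ratio in sgCEBPD 3 was -0.069, with 10 below and 9 above the other 7 libraries. AARS1, the alanine enzyme, had 248, 286, 472 and 278 CPM in sgCEBPD 1 to 4, against 209, 214, 217 and 244 CPM in sgControl 1 to 4. It rose without sgCEBPD 3, by 0.29 ± 0.065 (SE) on the log2 scale with an adjusted p of 0.0495 in edgeR, and did not pass with 8 libraries (0.54 ± 0.19, adjusted p = 0.384). The call held in 7 of 15 alternatives and was lost without any one of sgControl 1, 2 and 3 and sgCEBPD 2 and 4, with library totals, with the 5 CPM filter and in limma-voom (highest adjusted p = 0.162). It was the only gene that edgeR called in the 8 lists without sgCEBPD 3, where 2.01% of all genes tested were called. Limma-voom called none of the listed genes there, beside 218 of the 14047 genes tested. DESeq2 called AARS1, GARS1, WARS1, EIF4B and EIF2S3, beside 596 of 14042 genes.

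**Figure D4:**
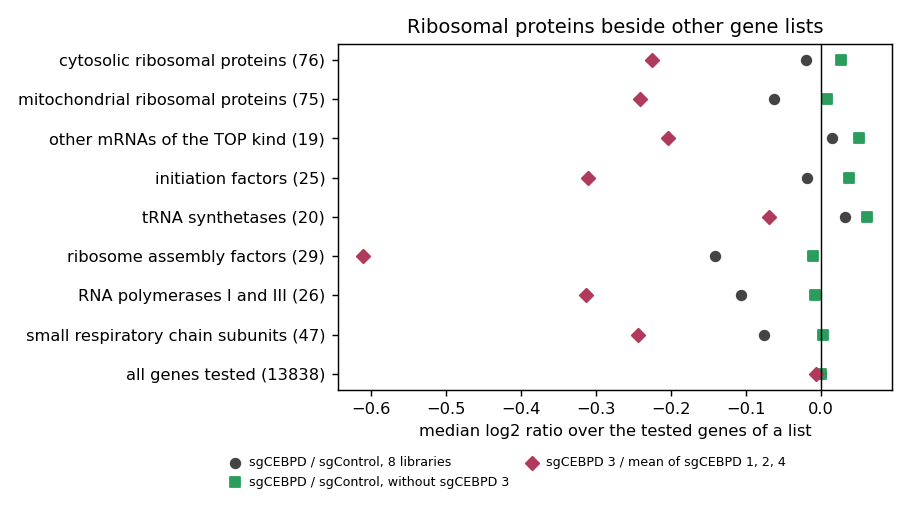
Median log2 ratio over the tested genes of each list (their number in brackets): sgCEBPD over sgControl with 8 libraries (circles) and without sgCEBPD 3 (squares), and sgCEBPD 3 over the mean of sgCEBPD 1, 2 and 4 (diamonds). The circles and squares of the cytosolic ribosomal proteins lie at -0.020 and 0.027 and their diamond at -0.22, between those of the tRNA synthetases (-0.069) and the assembly factors (-0.61).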

How the data were processed

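RNA sequencing of 8 OCI-AML5 libraries was analysed from 1 table of raw gene counts deposited by the authors, without normalisation. The submitters' processing notes name FastQC, HISAT2, DESeq2 and hg38, with no role or version. The counting tool, its strand setting and its annotation are not given in the sources used here. Per the labels' protocols, RNA was extracted with Trizol and libraries were prepared with a commercial kit. Totals of 10217751 to 11521209 counts per library set the counting precision.

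Counts were tested in edgeR 4.0.16 (R 4.3.3) with filterByExpr, TMM scaling and a robust quasi-likelihood model holding the group alone, over the whole table. The Benjamini-Hochberg adjustment ran over every gene tested (threshold 0.05). CPM were computed here with TMM-scaled library sizes. The SE is the absolute log2 fold change over the square root of F, and 0.5 was added to CPM in log2 ratios. Alternatives were DESeq2 1.42.0, limma-voom (limma 3.58.1), other scalings and filters, the guide number as a block, and each library left out. The functions were tested on simulated counts. Positions and lengths came from GENCODE release 29 (GRCh38), and start sites from RefSeq (GRCh38.p14) for 62 of 77 members.

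The members and lists were chosen with earlier results of these data known. Members were named by lowest p in each direction and comparison, by extreme level per kilobase, by extreme spread, by extreme ratio in sgCEBPD 3, and by role in the stalk, the 5S particle, the exit tunnel, anaemia or leukaemia. Paralogues, MYC and genes of the other lists called in edgeR were named too. Every other member, SPI1, CD14, ANPEP, KLF1, CCNB1, the 2 pseudogenes and TCOF1 were chosen after their values were seen, as were genes named only because DESeq2 called them. Some items are not reported here.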

Additional observations from a re-analysis of the deposited data

Results flagged for a closer look

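Of 102 groups of 4 libraries examined for single genes and shares, 8 had a library whose gap to the nearest of the other 3 took up most of the group's range. For groups not picked by their values, about 1 in 20, or 5.1, would do so by chance. Some genes here, RPL6 among them, were picked for an extreme ratio in sgCEBPD 3 or an extreme spread, so that number is no test for them. In 7 of the 8 the library was sgCEBPD 3, which stands apart over the whole table, so these are not 7 separate events. The large-subunit share was 2.77% of counts in sgCEBPD 3 against 3.34% to 3.44% in sgCEBPD 1, 2 and 4. RPL13 stood at 1100.1 CPM against 1362 to 1402 CPM and RPL6 at 724 against 983 to 1033 CPM. RPS15 stood at 502 against 609 to 617 CPM, RPS19 at 644 against 763 to 779 CPM, and RPS2 at 1624 against 1818 to 1846 CPM. The paralogue RPL22L1 stood at 74.5 CPM in sgCEBPD 3 against 128 to 132 CPM in the other sgCEBPD libraries.

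In the remaining group the library was a different one. RPL10 stood at 765 CPM in sgControl 1 against 816 to 820.3 CPM in the other controls.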

How the results depend on the processing

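Calls among the 76 tested members (77 without a filter) were 0 in every setting run in both comparisons. The median log2 fold change of the members kept its sign in all settings but 1: over libraries left out it ran from -0.051 to 0.027 with 8 libraries, positive only without sgCEBPD 3, and from 0.0068 to 0.047 with 7. The log2 ratio of the mean shares (sgCEBPD over sgControl) was -0.051 and ran from -0.083 to 0.014 with a library left out, positive only without sgCEBPD 3, and that of the subunit ratio was -0.0007, ran from -0.0045 to 0.0045 with a library left out and was -0.0050 without the most abundant member of each subunit. The number of members in which sgCEBPD 3 lay lowest, 56, ran from 56 to 58 with each other library left out and was 63 with library totals, settings chosen after seeing the data. Of all genes tested, 34.9% lay below in the main setting and 40% with library totals. Over all genes, the 11 calls with 8 libraries became 292 in DESeq2, 20 with no filter and 0 to 283 with a library left out. The count was 283 when sgCEBPD 3 was dropped and 0 in edgeR when sgCEBPD 2 was dropped, where 1345 genes had an unadjusted p below 0.05. It was 6 on dropping sgControl 2 or sgCEBPD 1, and 1 on dropping any other control. The 283 calls with 7 libraries became 596 with DESeq2 and 66 (without sgControl 1) to 312 (without sgCEBPD 4) with a library left out, and 139, 146, 142 and 152 without sgCEBPD 1, sgCEBPD 2, sgControl 3 and sgControl 4. The causes were not tested.

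The guide numbers did not pair libraries: deviations from the group means of same-numbered libraries had correlations of 0.029, 0.056, -0.081 and -0.042. A replicate block by guide number left 1 gene called with 8 libraries and 352 with 7, 0 of them members, and the members' medians were -0.021 and 0.020.

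For the 38 members named by rule, 0 of 1143 alternative values passed the threshold, 105 had the other sign and 5 moved by more than 1 SE. These were RPL37 without sgCEBPD 3 (0.076), RPS10 (-0.43) and RPS18 (-0.19) also without sgCEBPD 1, and RPL39 (-0.020) and RPLP2 (0.013) also without sgCEBPD 4. Depth limits RPS10, RPL17, RPL36A and RPL26, whose intervals allow changes that the table cannot show. Among genes that are no members, called values kept their sign in every alternative, and those that lost the call are given in the text.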
